A study of Homo sapiens with 16 samples.

Results

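The response of 22Rv1 spheroids to siMED12 was described from 5 of the 16 libraries of the series, the 3 siCtrl libraries (replicates 1, 2 and 3) and the 2 siMED12 libraries (replicates 1 and 3) of this line, chosen by their labels. 22Rv1 is a human prostate carcinoma line that responds to androgen and resists enzalutamide, and every library comes from this single established line. Cells received 25 pmol of a non-targeting siRNA pool (siCtrl) or of a pool against MED12 (siMED12) by lipofection, stayed in 2D culture for 3 days and were then re-seeded on ultra low attachment plates, where the spheroids grew for 4 days before harvest, 7 days after transfection in all. The labels name no other agent, and one serum-containing medium is given for all libraries. The other libraries, 6 of LNCaP and 5 of PC3, were made in the same way and are used below to estimate the spread and to ask whether a 22Rv1 effect differed from theirs. The study's methods speak of biological replicates for its experiments in general, while the labels do not say how these libraries were cultured, so p-values measure the spread between these libraries, which may be partly technical.

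MED12 belongs to the kinase module of Mediator, the complex that links transcription factors at enhancers to RNA polymerase II. The module holds MED12, MED13, cyclin C and the kinase CDK8 or CDK19, binds Mediator reversibly, and can hold polymerase back or promote transcription depending on the gene. MED12 activates the kinase through cyclin C. The module is known for its part in serum-response, WNT, TGF-beta, hypoxia and hormone-receptor transcription, and each of these pathways was followed here as a list of genes.

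The total count was 606246 to 957684 per library, with 14370 to 15289 genes detected. A count of 0 still allows 3 counts, which is 3.18 to 5.01 CPM (counts scaled to a common library total), and this limit covers counting error only. Between 5.41% and 7.67% of the counts were mitochondrial. Levels below are CPM scaled by the trimmed mean of M values, listed in the order siCtrl replicates 1, 2 and 3, then siMED12 replicates 1 and 3. BRB-seq counts the 3′ ends of transcripts, so a level follows the number of transcripts and not their length. Fold changes are log2 of siMED12 over siCtrl with ± the standard error (SE) from the edgeR fit, and p-values are adjusted over all tested genes.

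The libraries carried the markers of prostate luminal cells. All 14 luminal markers had counts in each of the 5 libraries, the lowest being ACP3 with 10, 4 and 4 counts in siCtrl and 33 and 21 in siMED12, and their summed level was 2253 to 2328 CPM in siCtrl and 2545 to 2789 CPM in siMED12. 7 of the 10 immune and 7 of the 12 fibroblast and endothelial markers had no count in any of the 5 libraries, among them PTPRC, CD3E, VWF and DCN. The summed level of the fibroblast and endothelial list was 3.85 to 15.04 CPM in siCtrl and 8.98 to 13.8 CPM in siMED12, and that of the immune list was 0 to 1.30 and 0 to 1.28 CPM. COL1A1, a collagen chain that PC3 also expresses, was the only marker of either list to pass the expression filter over all 16 libraries and had 2, 7 and 0 counts in siCtrl and 8 and 4 in siMED12 (log2 fold change 0.70 ± 0.73, adjusted p = 0.766).

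Transcripts of another cell line were present in 1 library. The 45 genes that were restricted to PC3 (a mean of at least 100 CPM in PC3 and at most 2% of that in siCtrl libraries of 22Rv1 and LNCaP) had a median level of 0.66%, 0.51% and 0.79% of their PC3 level in the 3 siCtrl libraries and 0.52% in siMED12 replicate 1. In siMED12 replicate 3 the median was 4.88% and the summed level 4.91%. All 45 genes had a count in that library, against 28 to 33 in the other libraries. The 4 genes restricted to LNCaP by the same rule stood at 0.48% to 1.10% in all 5 libraries. As an alternative 4.88% of the mean PC3 profile was subtracted from this library. Nothing was taken from the other libraries, so values after subtraction can be too low for genes high in PC3. Where the subtraction ended a call of a gene described below, or where the expected PC3 share of the replicate 3 level of a called gene was over 25%, this is stated with the gene.

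**Figure D1:**
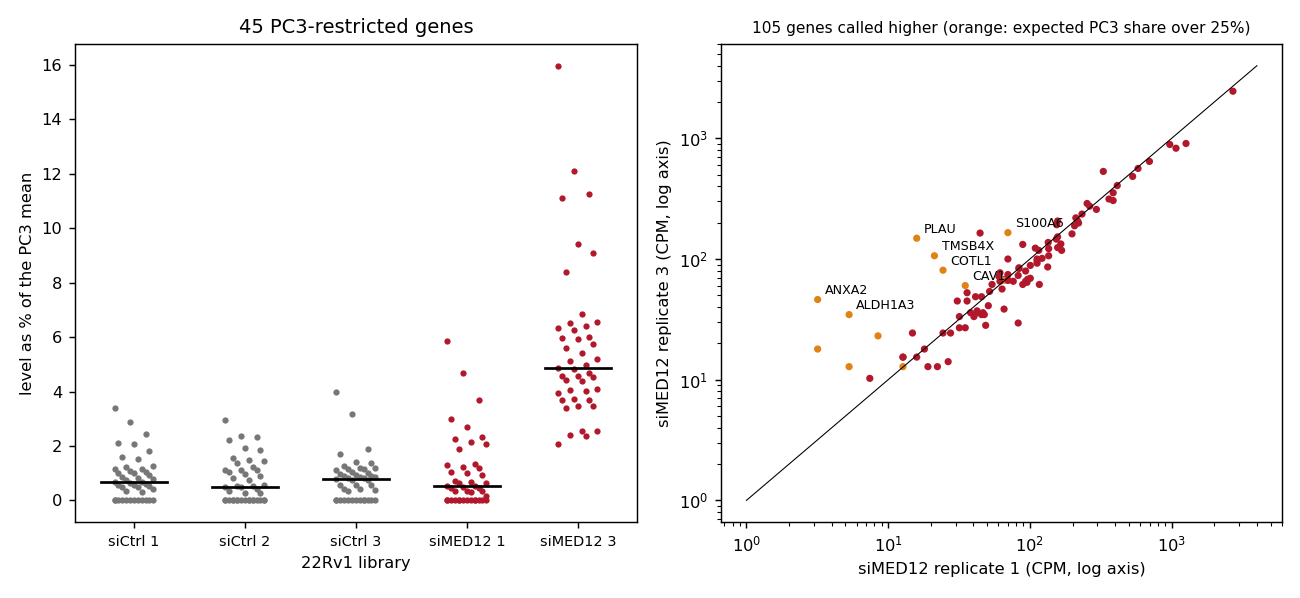
Left, level of each of 45 PC3-restricted genes in the 5 22Rv1 libraries as a percentage of its mean PC3 level (points; bar, median); right, level of the 105 genes called higher in siMED12 replicate 1 against replicate 3, both in CPM on log axes with the line of equality. The points of siMED12 replicate 3 sit around 4.88%, and the orange genes, in which the expected PC3 share is over 25% of the replicate 3 level, lie mostly above the line.

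MED12 (ENSG00000184634, chrX:71118543-71144103 on GRCh38) was counted at low depth. Its level was 23.4, 16.7 and 19.2 CPM in siCtrl and 7.42 and 8.98 CPM in siMED12, from 18, 10 and 15 counts in siCtrl and 7 and 7 in siMED12. Both siMED12 libraries lay below all siCtrl libraries, at a mean of 8.20 ± 1.10 CPM (SD, n = 2) against 19.8 ± 3.39 CPM (SD, n = 3). The log2 fold change was -1.28 (95% confidence interval -2.21 to -0.35), and the adjusted p of 0.175 did not pass the threshold of 0.05. Other genes of the module gave no call. CCNC, which encodes cyclin C, stood at 104, 122 and 98.8 CPM in siCtrl and 98.6 and 114 CPM in siMED12 (log2 fold change -0.022 ± 0.19, adjusted p = 0.986), and MED13L, a paralog of MED13, at 45.5, 65.2 and 62.9 CPM in siCtrl and 39.2 and 43.6 CPM in siMED12 (log2 fold change -0.48 ± 0.31, adjusted p = 0.598). None of the 6 tested genes of the kinase module and none of the 23 tested genes of core Mediator passed, where 1.84% of all tested genes were called. Those counts are near this share and are not read as results about the lists. The medians were -0.44 and -0.01 beside 0.0061 over all 10566 tested genes. The median of the kinase module was -0.17 without siMED12 replicate 1, where 3 of 6 genes were above 0, and -0.56 without replicate 3, where none was, and that of the core list was -0.12 and -0.074. In the core list the most abundant members were MED28 and MED30, with log2 fold changes of -0.32 and -0.48 (adjusted p = 0.606 and 0.469). CCNH, the cyclin of the CDK-activating kinase of TFIIH and not a Mediator subunit, fell from 137, 127 and 133 to 72.1 and 73.1 CPM (log2 fold change -0.87 ± 0.19, adjusted p = 0.00816). It was singled out after its values were seen. CCNH lost the call without siMED12 replicates 1 or 3 (adjusted p 0.127 and 0.0686).

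siMED12 changed 194 of 10566 tested genes (1.84%), of which 105 rose (0.994% of those tested) and 89 fell (0.842%). Among the risen genes 101 of 105 had both siMED12 libraries above all siCtrl libraries, and among the fallen genes 88 of 89 had both below, beside 13.8% and 12.9% of all tested genes (26.6% in either direction). The median log2 fold change was 1.27 over the risen and -1.02 over the fallen genes, and 74 and 48 of them moved by at least 1 on the log2 scale. Of the 194 genes 182 were protein-coding. Of 366 tested long non-coding RNAs 2 fell and none rose, and of 366 tested pseudogenes 2 rose and 6 fell. After subtraction of the PC3 counts 176 genes passed, and 91 of the 105 risen and 78 of the 89 fallen genes were among them. The number was 108 without siCtrl replicate 3, 74 without siMED12 replicate 1 and 124 without siMED12 replicate 3, where the remaining siMED12 library was assumed to vary like the other groups. In all, 31 calls, 16 higher and 15 lower, held in every fit with 1 of the 5 libraries left out. In the lists below a single call is close to these shares in the larger lists. In a list of any size a single call is not read as a result about the list. Fewer cells of a kind and less RNA per cell cannot be told apart in these bulk samples.

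**Figure D2:**
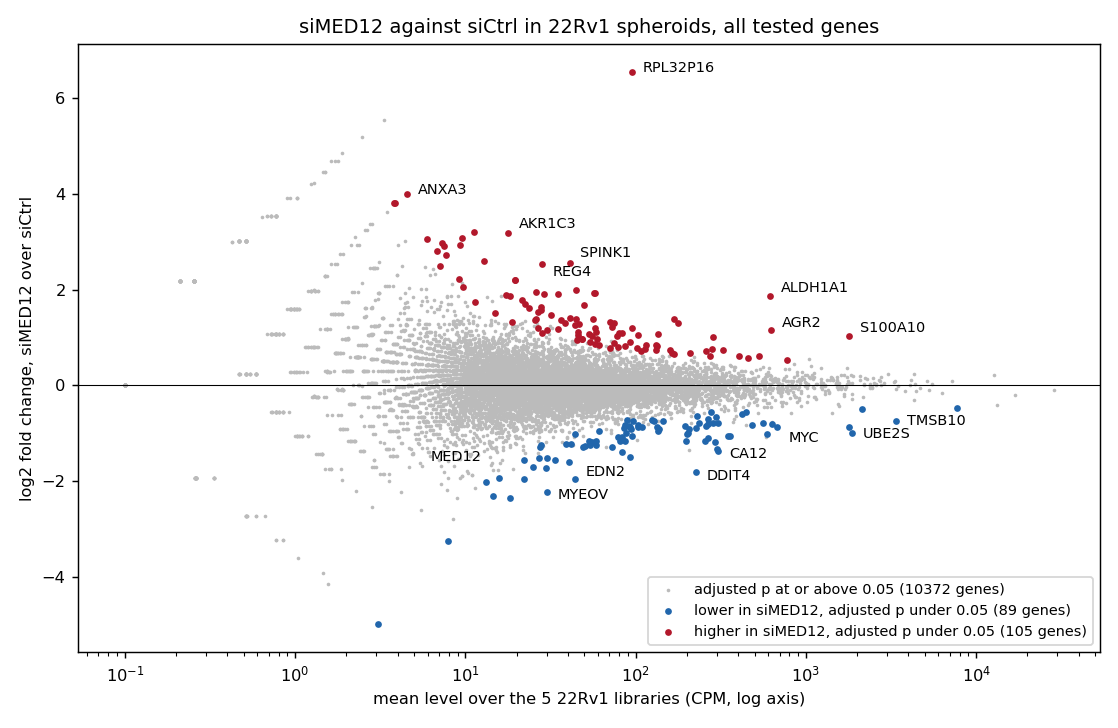
Each point is 1 of 10566 tested genes, with its mean level over the 5 22Rv1 libraries (CPM, log axis) and its log2 fold change, siMED12 over siCtrl. The 105 genes called higher are red and the 89 called lower are blue, and the named genes run from below 10 CPM up to more than 1000 CPM. ANXA3, at the low end, is PC3-restricted, with an expected PC3 share of 40.4% of its siMED12 replicate 3 level. It was not called after subtraction of the PC3 counts (adjusted p = 0.118).

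Some genes for secreted and cell-surface proteins of intestinal-type epithelium rose. Of 51 such genes on a list, 18 passed the expression filter. Of these 18, 7 rose, 11 were not called and none fell, where 0.994% of all tested genes rose. The list was drawn up with earlier results of these data known, so its count is a description. A member could also pass the filter through the siMED12 libraries, where it is high. CDH17 had 8, 6 and 3 counts in siCtrl and 38 and 26 in siMED12, and LGALS4 had 4, 1 and 4 and then 26 and 19. The count that rose, the number above 0 and the median are thus partly set by the filter. Its tested members had a median of 0.64, beside 0.0061 over all genes, and 16 were above 0. Without siMED12 replicate 3 and after subtraction of the PC3 counts 7 members were called in each case, and 4 were called without siMED12 replicate 1, where the median was 1.18. Another 18 list members, among them TFF1, TFF3, MUC2 and CDX2, had no count in any library.

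SPINK1 (ENSG00000164266, chr5:147824572-147831671), a secreted trypsin inhibitor overexpressed in a subset of prostate cancers, stood at 13.01, 6.69 and 20.5 CPM in siCtrl and 96.5 and 67.98 CPM in siMED12. Its lowest siMED12 value was more than 3 times its highest siCtrl value (log2 fold change 2.56 ± 0.32, adjusted p = 5.4e-06). MUC13 (chr3:124905442-124953819), a transmembrane mucin, was at 31.2, 18.4 and 30.8 CPM in siCtrl and 112 and 96.2 CPM in siMED12 (log2 fold change 1.93 ± 0.26, adjusted p = 2.72e-05). REG4 (chr1:119794017-119811580), a secreted C-type lectin, was at 14.3, 8.36 and 6.42 CPM in siCtrl and 82.7 and 29.5 CPM in siMED12, with siMED12 replicate 1 far above replicate 3 (log2 fold change 2.54 ± 0.41, adjusted p = 0.00019). AGR2 (chr7:16791811-16833433), a protein disulfide isomerase of the endoplasmic reticulum needed for mucin folding, was the most abundant of the group at 379.99, 393 and 486 CPM in siCtrl and 971 and 890.1 CPM in siMED12 (log2 fold change 1.15 ± 0.17, adjusted p = 0.000119). The siCtrl and siMED12 libraries did not overlap for any of these 4 genes, which the naming rule required of SPINK1, MUC13 and REG4.

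CDH17, an intestinal cadherin, rose from 10.4, 10.03 and 3.85 to 40.3 and 33.3 CPM (log2 fold change 2.20 ± 0.41, adjusted p = 0.00327). LGALS4, a galectin, rose from 5.21, 1.67 and 5.13 to 27.6 and 24.4 CPM (log2 fold change 2.59 ± 0.49, adjusted p = 0.00232), and the siCtrl values lie near the limit of 3 counts. TSPAN8, a tetraspanin, rose from 125, 120.3 and 93.7 to 295 and 258 CPM (log2 fold change 1.30 ± 0.21, adjusted p = 0.000441). These 3 list members lie outside the naming rule and were chosen after their values were seen. Subtraction of the PC3 counts left all 7 calls in place, and the expected PC3 share of their replicate 3 level was 1.77% for AGR2 and under 0.2% for the other members. SPINK1, MUC13, AGR2 and TSPAN8 kept the call whichever of the 5 libraries was left out. TSPAN8 lost the call in 2 other alternatives of processing. REG4 lost the call without siMED12 replicate 1 (adjusted p 0.234), where the log2 fold change was 1.56. CDH17 lost the call without siMED12 replicate 1 (adjusted p 0.0975). LGALS4 lost the call without siMED12 replicate 1 (adjusted p 0.0692).

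Among enzymes that build mucin-type sugar chains, 1 of 17 tested genes rose and none fell, where 0.994% of all tested genes rose. GALNT3, which adds the first sugar of such chains, stood at 13.01, 10.03 and 12.8 CPM in siCtrl and 45.6 and 48.7 CPM in siMED12 (log2 fold change 1.94 ± 0.30, adjusted p = 0.00019). GALNT3 kept the call whichever of the 5 libraries was left out.

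The promoters of genes that moved together are shown for a pair of risen secretory genes, REG4 and AGR2, and for a pair of fallen genes described below, UBE2S and DUSP1. Each run is the RefSeq window from 250 bases before to 50 bases after the annotated start on GRCh38.p14, on the coding (minus) strand, and capitals mark matches on either strand. The letters searched were TGACGTCA for the cAMP response element, TGANTCA for the AP-1 element, CACGTG for an E-box of the MYC kind, AGATAA for a GATA factor element, TNTTTAC for a forkhead factor element and TATAAA for the TATA box, and no match of 1 kind overlaps a match of another kind.
REG4 (chr1:119811411-119811710): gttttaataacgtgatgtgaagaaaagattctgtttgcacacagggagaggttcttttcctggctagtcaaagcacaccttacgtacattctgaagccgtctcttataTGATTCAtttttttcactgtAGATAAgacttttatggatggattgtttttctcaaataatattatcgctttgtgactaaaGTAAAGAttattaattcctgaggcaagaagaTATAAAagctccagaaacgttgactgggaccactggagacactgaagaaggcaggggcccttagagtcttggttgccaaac
AGR2 (chr7:16804950-16805249): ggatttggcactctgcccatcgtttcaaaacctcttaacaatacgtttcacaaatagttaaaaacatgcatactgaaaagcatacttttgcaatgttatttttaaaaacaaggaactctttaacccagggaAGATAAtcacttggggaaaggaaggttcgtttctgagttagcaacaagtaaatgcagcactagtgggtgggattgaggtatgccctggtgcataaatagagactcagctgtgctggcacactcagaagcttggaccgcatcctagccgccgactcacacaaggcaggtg
UBE2S (chr19:55407739-55408038): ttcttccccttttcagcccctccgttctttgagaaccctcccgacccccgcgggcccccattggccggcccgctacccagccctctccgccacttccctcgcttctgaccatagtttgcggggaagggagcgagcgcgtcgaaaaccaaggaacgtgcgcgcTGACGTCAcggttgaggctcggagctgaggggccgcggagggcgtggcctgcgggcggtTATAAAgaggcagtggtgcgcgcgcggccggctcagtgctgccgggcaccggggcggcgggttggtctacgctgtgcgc
DUSP1 (chr5:172771146-172771445): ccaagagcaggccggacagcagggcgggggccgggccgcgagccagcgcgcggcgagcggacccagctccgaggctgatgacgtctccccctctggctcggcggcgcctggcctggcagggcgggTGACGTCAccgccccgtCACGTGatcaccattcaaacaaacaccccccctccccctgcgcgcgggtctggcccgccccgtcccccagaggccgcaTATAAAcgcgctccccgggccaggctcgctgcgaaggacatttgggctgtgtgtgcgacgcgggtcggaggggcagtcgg

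REG4 held 1 match each to AP-1, GATA, forkhead and TATA letters, and AGR2 held 1 GATA match. UBE2S and DUSP1 each held 1 TGACGTCA and 1 TATAAA, and DUSP1 also held 1 CACGTG. The promoters shown were picked by hand and do not stand for their groups. Only 5 of 89 windows of fallen genes held TGACGTCA. Over the 12121 promoter windows found for 8223 tested genes, TGACGTCA occurred in 2.99%, beside 2.16% of 139 windows of risen genes and 5.62% of 89 windows of fallen genes. CACGTG occurred in 9.87% of all, 4.32% of risen and 16.9% of fallen windows. TGANTCA occurred in 4.91%, 9.35% and 10.1%, TNTTTAC in 6.95%, 12.9% and 7.87%, AGATAA in 5.26%, 8.63% and 6.74%, and TATAAA in 5.87%, 8.63% and 10.1%. Several windows can belong to 1 gene, and these shares describe letters and not binding.

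Several enzymes were among the risen genes, where 0.994% of all tested genes rose. ALDH1A1 (ENSG00000165092, chr9:72900671-73080442), which makes retinoic acid from retinal, stood at 327, 313 and 251 CPM in siCtrl and 1264 and 907 CPM in siMED12 (log2 fold change 1.87 ± 0.15, adjusted p = 2.57e-10). AKR1C3 (chr10:5035354-5107686), which reduces androgen precursors to testosterone, stood at 6.51, 3.34 and 2.57 CPM in siCtrl and 48.8 and 28.2 CPM in siMED12 (log2 fold change 3.18 ± 0.44, adjusted p = 4.07e-05), and it was 1 of 16 tested steroid and drug conjugating enzymes called. Its siCtrl values came from 2 to 5 counts, and reads of its close paralogs AKR1C1 and AKR1C2, which did not pass the expression filter, may be split with it. CRYZ, a quinone reductase, stood at 16.9, 10.03 and 11.5 CPM in siCtrl and 45.6 and 34.6 CPM in siMED12 (log2 fold change 1.62 ± 0.32, adjusted p = 0.0038). CAT, which encodes catalase and was the only riser among 30 tested antioxidant genes, stood at 122, 100.3 and 78.3 CPM in siCtrl and 198 and 162 CPM in siMED12 (log2 fold change 0.85 ± 0.18, adjusted p = 0.00816). ALDH1A1 and AKR1C3 kept the call whichever of the 5 libraries was left out. CRYZ lost the call without siMED12 replicate 1 (adjusted p 0.156). CAT lost the call without siCtrl replicate 3 or siMED12 replicate 1 (adjusted p 0.0729 and 0.27).

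PYGL, the liver-type glycogen phosphorylase, rose from 7.81, 10.03 and 6.42 to 38.2 and 35.9 CPM (log2 fold change 2.20 ± 0.34, adjusted p = 0.000184). It was 1 of 19 tested genes of glycogen metabolism called, where 0.994% of all tested genes rose. Singled out after their values were seen, GSTK1 and MGST2, both glutathione transferases, rose from 81.98, 63.5 and 42.3 to 168 and 118 CPM (log2 fold change 1.20 ± 0.22, adjusted p = 0.00157) and from 52.1, 65.2 and 48.8 to 122 and 101 CPM (log2 fold change 1.03 ± 0.20, adjusted p = 0.00282). IDH1, the cytosolic isocitrate dehydrogenase that makes NADPH, rose from 58.6, 70.2 and 78.3 to 136 and 122 CPM (log2 fold change 0.90 ± 0.19, adjusted p = 0.00792). ALDH3A2, which oxidises fatty aldehydes, went the other way, from 339.6, 379 and 600.5 to 197 and 228 CPM (log2 fold change -1.06 ± 0.18, adjusted p = 0.000911). PYGL and ALDH3A2 kept the call whichever of the 5 libraries was left out. GSTK1 lost the call without siMED12 replicate 1 (adjusted p 0.159). MGST2 lost the call without siMED12 replicate 1 (adjusted p 0.141). IDH1 lost the call without siCtrl replicate 1 or siMED12 replicate 1 (adjusted p 0.0547 and 0.171).

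**Figure D3:**
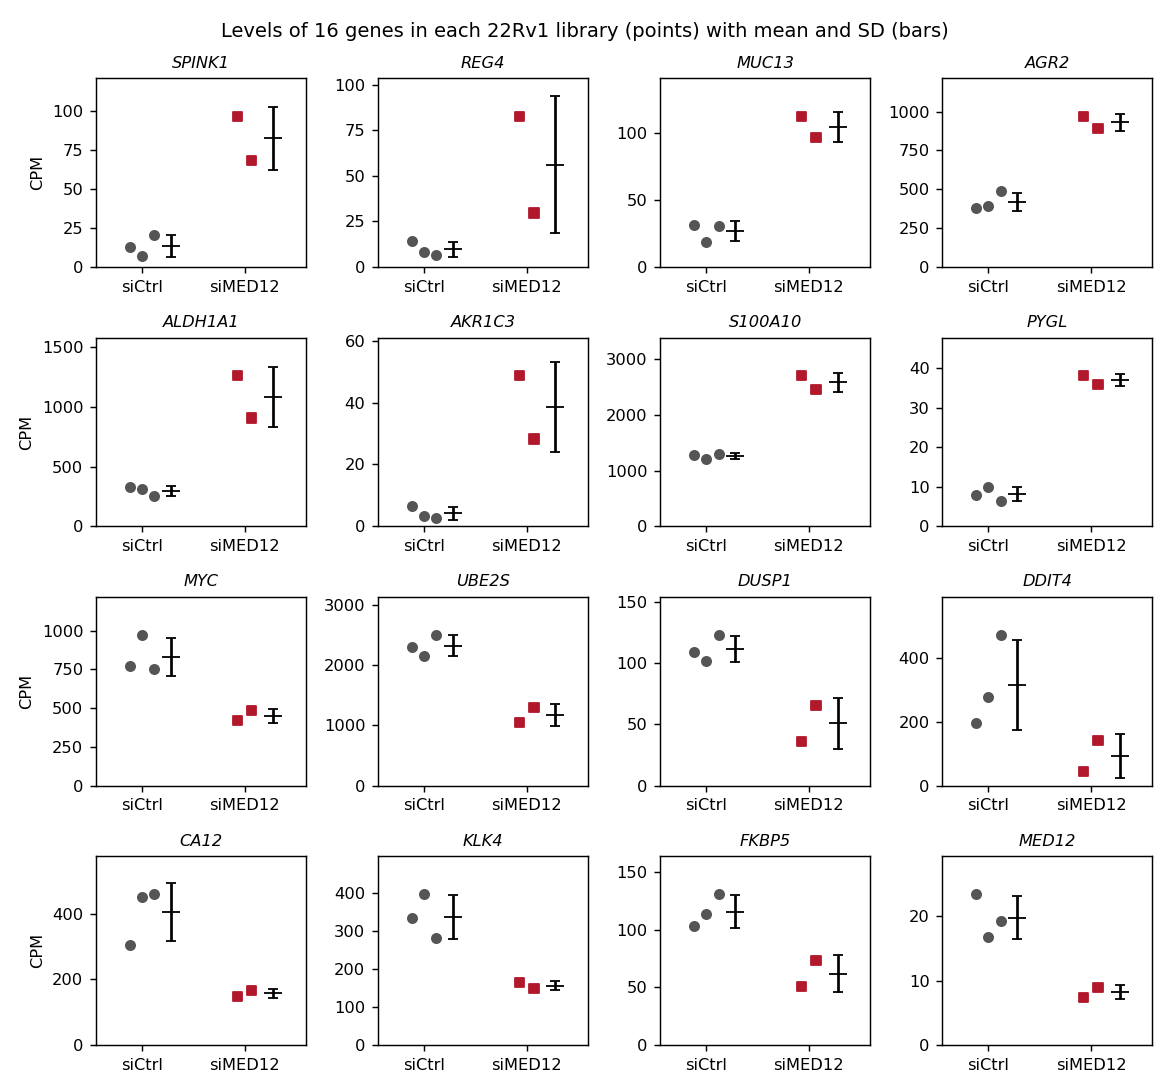
Level in CPM of 16 genes in the 3 siCtrl libraries (grey circles) and the 2 siMED12 libraries (red squares), with the mean and SD of each group beside the points. The groups do not overlap for any of the 16 genes, and MED12, with an adjusted p of 0.175, is the only one of them without a call. The naming rule required groups without overlap for SPINK1, REG4, MUC13, ALDH1A1 and DDIT4.

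Other risen genes have varied functions. S100A10 (chr1:151982915-151993859), the light chain of the annexin A2 tetramer, was the most abundant riser named here at 1280.5, 1205 and 1306 CPM in siCtrl and 2709 and 2459 CPM in siMED12 (log2 fold change 1.03 ± 0.12, adjusted p = 1.87e-06). C12orf75 stood at 232, 187 and 192 CPM in siCtrl and 414 and 407 CPM in siMED12 (log2 fold change 1.0 ± 0.14, adjusted p = 3.11e-05) and C2orf72 at 10.4, 5.01 and 24.4 CPM in siCtrl and 51.95 and 53.9 CPM in siMED12 (log2 fold change 1.91 ± 0.39, adjusted p = 0.00513). PLAAT3, a phospholipase that acts on organelle membranes, stood at 65.1, 61.8 and 46.2 CPM in siCtrl and 136 and 106 CPM in siMED12 (log2 fold change 1.08 ± 0.22, adjusted p = 0.00429). SPOCK2, a secreted proteoglycan, stood at 26.03, 26.7 and 25.7 CPM in siCtrl and 69.98 and 100.04 CPM in siMED12 (log2 fold change 1.68 ± 0.25, adjusted p = 9.82e-05). TSPAN3, a tetraspanin, rose from 94.999, 88.6 and 96.2 to 207 and 189 CPM (log2 fold change 1.08 ± 0.16, adjusted p = 0.000119), and CPE, the carboxypeptidase that trims peptide hormones, from 107, 91.9 and 108 to 264 and 274 CPM (log2 fold change 1.39 ± 0.18, adjusted p = 2.72e-05). TSPAN3 and CPE were singled out after their values were seen. The groups did not overlap for any of these 7 genes, which the naming rule required of C2orf72 and SPOCK2. S100A10, C12orf75, C2orf72, SPOCK2, TSPAN3 and CPE kept the call whichever of the 5 libraries was left out. C2orf72 lost the call in 1 other alternative of processing. PLAAT3 lost the call without siMED12 replicate 1 (adjusted p 0.196).

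Some further risen genes encode proteins best known from blood plasma. They were picked from the called genes after their values were seen, except ANG, so that they rose is set by the choice. ANG, a ribonuclease that promotes vessel growth, stood at 15.6, 8.36 and 7.7 CPM in siCtrl and 30.7 and 44.9 CPM in siMED12 (log2 fold change 1.79 ± 0.34, adjusted p = 0.00282). SELENOP, the selenium carrier, rose from 29.9, 26.7 and 32.1 to 69.98 and 74.4 CPM (log2 fold change 1.27 ± 0.25, adjusted p = 0.00341), and PON1, the paraoxonase of high-density lipoprotein, from 32.5, 18.4 and 21.8 to 60.4 and 71.8 CPM (log2 fold change 1.41 ± 0.29, adjusted p = 0.00429). A2M, a broad protease inhibitor, rose from 10.4, 18.4 and 16.7 to 36.05 and 52.6 CPM (log2 fold change 1.54 ± 0.34, adjusted p = 0.0158). GC, the vitamin D binding protein, stood at 13.01, 16.7 and 47.5 CPM in siCtrl and 44.5 and 164 CPM in siMED12, and its groups overlapped because siMED12 replicate 1 lay under siCtrl replicate 3 (log2 fold change 1.93 ± 0.41, adjusted p = 0.00648). CST3, the cysteine protease inhibitor cystatin C, rose from 228, 212 and 219 to 387 and 354 CPM (log2 fold change 0.75 ± 0.15, adjusted p = 0.00371). Both siMED12 libraries lay above all siCtrl libraries for each of these genes except GC, which the naming rule required of ANG. SELENOP kept the call whichever of the 5 libraries was left out, and lost it in 1 other alternative of processing. ANG lost the call without siMED12 replicate 3 (adjusted p 0.0819). PON1 lost the call without siMED12 replicate 3 (adjusted p 0.0617). A2M lost the call without siCtrl replicate 1 or siMED12 replicate 3 (adjusted p 0.0899 and 0.211). GC lost the call without siCtrl replicate 1 or siMED12 replicate 3 (adjusted p 0.0592 and 0.587), and its log2 fold change was 0.75 without siMED12 replicate 3. CST3 lost the call without siMED12 replicate 1 (adjusted p 0.114).

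A subset of the risen genes cannot be told apart from the PC3 transcripts in siMED12 replicate 3. For 12 of the 105 risen genes the expected PC3 share was over 25% of the level in that library, and 5 of the 105 were PC3-restricted by the rule above. ANXA2, a calcium-dependent membrane-binding protein, stood at 0, 3.34 and 3.85 CPM in siCtrl and 3.18 and 46.2 CPM in siMED12, with siMED12 replicate 1 inside the siCtrl range. Its call (log2 fold change 3.21, adjusted p = 0.0151) was lost after subtraction, where the log2 fold change was -0.35. PLAU, the urokinase, stood at 19.5, 18.4 and 20.5 CPM in siCtrl and 15.9 and 149 CPM in siMED12, and its expected PC3 share was 119% of the replicate 3 level. Its log2 fold change of 2.0 turned to -1.12 after subtraction and to -0.30 without siMED12 replicate 3. For ANXA2 the expected PC3 share was 104%. In both genes the amount subtracted exceeded the replicate 3 level, so the negative values after subtraction are not read as falls. TMSB4X, an actin-binding peptide, stood at 13.01, 10.03 and 24.4 CPM in siCtrl and 21.2 and 106 CPM in siMED12 (log2 fold change 1.90, adjusted p = 0.0139), and its log2 fold change after subtraction was 0.48 (adjusted p = 0.677). In these 3 genes siMED12 replicate 3 alone stood high.

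ALDH1A3, a retinal dehydrogenase, COTL1, an actin-binding protein, and LAMB3, a laminin chain, had log2 fold changes of 2.92, 1.47 and 3.82 (adjusted p = 0.0215, 0.0225 and 0.0235). They had expected PC3 shares of 97.3%, 83.6% and 74.9% and were not called after subtraction, with adjusted p of 0.856, 0.95 and 0.186. The same held for S100A6, a calcium-binding protein, with 52.1, 30.1 and 55.2 CPM in siCtrl and 69.98 and 165 CPM in siMED12 and an adjusted p of 0.122 after subtraction. CAV1, the main protein of caveolae, differed from these: it stood at 16.9, 13.4 and 14.1 CPM in siCtrl and 34.99 and 60.3 CPM in siMED12 (log2 fold change 1.64 ± 0.31, adjusted p = 0.00206), had an expected PC3 share of 40.4%, and kept its call after subtraction (log2 fold change 1.28, adjusted p = 0.018). CAV1 lost the call without siMED12 replicate 3 (adjusted p 0.116). ANXA2 lost the call without siCtrl replicate 1 or siMED12 replicate 3 (adjusted p 0.0944 and 0.942), and its log2 fold change was 0.42 without siMED12 replicate 3. PLAU lost the call without siCtrl replicates 1, 2 or 3 or siMED12 replicate 3 (adjusted p 0.0944, 0.0995, 0.0846 and 0.906), and its log2 fold change was -0.30 without siMED12 replicate 3. TMSB4X lost the call without siCtrl replicates 1 or 2 or siMED12 replicate 3 (adjusted p 0.0688, 0.0736 and 0.841), and its log2 fold change was 0.38 without siMED12 replicate 3. ALDH1A3 lost the call without siCtrl replicates 1, 2 or 3 or siMED12 replicate 3 (adjusted p 0.07, 0.0896, 0.0743 and 0.729), and its log2 fold change was 1.13 without siMED12 replicate 3. COTL1 lost the call without siCtrl replicates 1, 2 or 3 or siMED12 replicate 3 (adjusted p 0.07, 0.0922, 0.0568 and 0.77), and its log2 fold change was 0.42 without siMED12 replicate 3. LAMB3 lost the call without siCtrl replicates 2 or 3 or siMED12 replicate 3 (adjusted p 0.0905, 0.113 and 0.278). LAMB3 stood at 5.75 on the log2 scale without siCtrl replicate 1. S100A6 lost the call without siCtrl replicates 1 or 2 or siMED12 replicate 3 (adjusted p 0.0511, 0.129 and 0.602), and its log2 fold change was 0.58 without siMED12 replicate 3.

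MYC (ENSG00000136997, chr8:127735434-127742951), the transcription factor that drives growth and ribosome production, fell. It stood at 770.4, 973 and 751 CPM in siCtrl and 419 and 484 CPM in siMED12, with the siMED12 libraries close together and below all siCtrl libraries (log2 fold change -0.88 ± 0.15, adjusted p = 0.000897). It was the only called gene among the 9 tested members of the MYC network, where 0.842% of all tested genes fell. MYC lost the call without siMED12 replicate 1 (adjusted p 0.051). Among genes of ribosome production none of 59 tested nucleolar genes passed, where 1.84% of all tested genes were called. That count is near this share and is not read as a result about the list. Of the 59 genes 42 were below 0, and the median was -0.11. NPM1 and NCL, abundant nucleolar proteins, had log2 fold changes of -0.12 and -0.035 (adjusted p = 0.774 and 0.971). None of 77 tested cytosolic ribosomal proteins passed, beside the same share, and this count is likewise not read as a result. Their median was 0.031, and -0.054 without siMED12 replicate 1 and 0.083 without replicate 3. RPL8 had a log2 fold change of 0.031 (adjusted p = 0.956).

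Cell cycle genes stood mostly below 0 with few calls. In the mitosis list 48 of 56 tested genes were below 0, with a median of -0.32, and 2 fell, where 0.842% of all tested genes fell. The count was 1 with either siMED12 library left out and 6 with the replicate block. UBE2S (ENSG00000108106, chr19:55399745-55407788), the ubiquitin-conjugating enzyme that extends chains on targets of the anaphase-promoting complex, stood at 2309, 2159 and 2505 CPM in siCtrl and 1043 and 1299 CPM in siMED12 (log2 fold change -0.99 ± 0.15, adjusted p = 0.000183). UBE2C, which starts those chains, stood at 347, 306 and 299 CPM in siCtrl and 207 and 224 CPM in siMED12 (log2 fold change -0.56 ± 0.15, adjusted p = 0.0361). In the list of DNA replication and S phase 46 of 52 tested genes were below 0, none passed and the median was -0.26. Over all tested genes 1.84% were called, so the lack of a call is not read as a result about this list. TYMS, thymidylate synthase, had a log2 fold change of -0.47 (adjusted p = 0.165) and MCM7, a subunit of the replicative helicase, of -0.25 (adjusted p = 0.523). Without siMED12 replicate 3 the counts below 0 were 43 of 56 and 46 of 52. BBC3, which encodes the p53 target PUMA, was the only call among 29 tested p53 genes, at 154, 130.4 and 94.95 CPM in siCtrl and 82.7 and 52.6 CPM in siMED12 (log2 fold change -0.88 ± 0.22, adjusted p = 0.026). UBE2S kept the call whichever of the 5 libraries was left out. UBE2C lost the call without siCtrl replicates 1, 2 or 3 or siMED12 replicates 1 or 3 (adjusted p 0.132, 0.0596, 0.0512, 0.361 and 0.122). BBC3 lost the call without siCtrl replicates 1 or 2 or siMED12 replicate 3 (adjusted p 0.155, 0.0712 and 0.339).

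**Figure D4:**
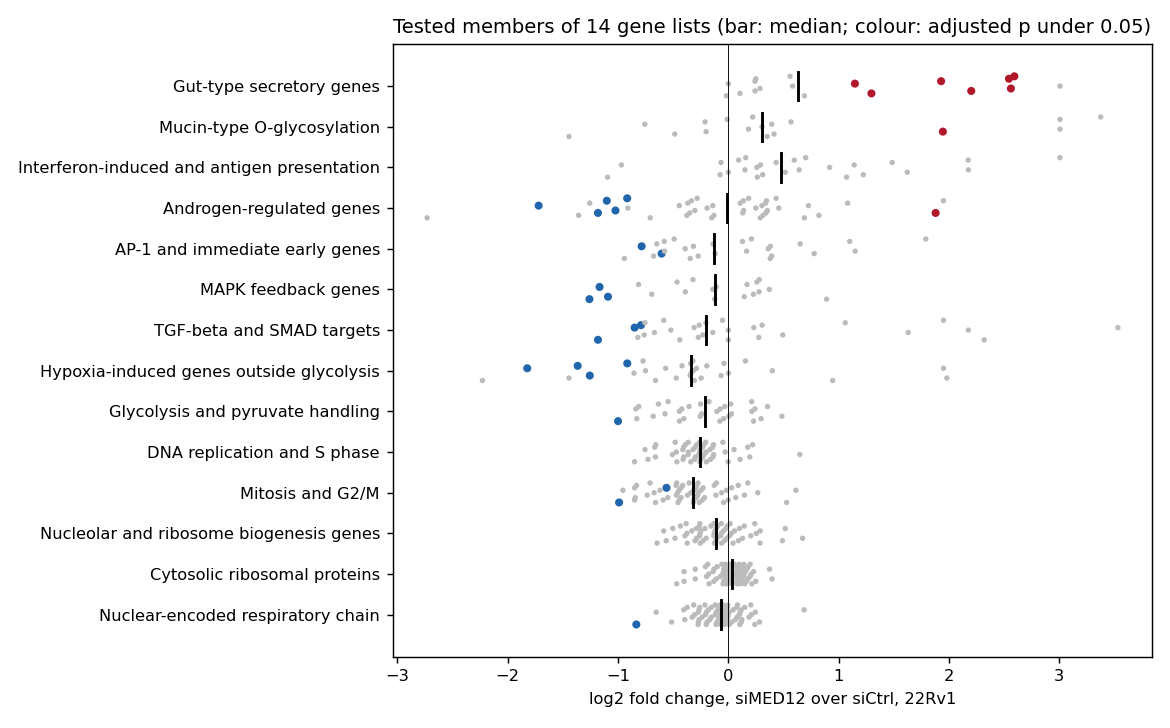
Log2 fold change, siMED12 over siCtrl, of the tested members of 14 gene lists in 22Rv1 (points; bar, median of the list), with called genes in red (higher) or blue (lower). The median lies at 0.64 for the gut-type secretory genes and at -0.26 and -0.32 for the S phase and mitosis lists, and most members of every list are grey.

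Some feedback inhibitors of growth signalling fell. Of 19 tested MAPK feedback genes 3 fell and none rose, where 0.842% of all tested genes fell. The count was 1 without siMED12 replicate 1, and 2 without replicate 3. DUSP1 (chr5:172768096-172771195), a phosphatase that switches off MAP kinases, stood at 109, 102 and 123 CPM in siCtrl and 36.05 and 65.4 CPM in siMED12 (log2 fold change -1.17 ± 0.28, adjusted p = 0.0205), and DUSP2, its nuclear relative, at 79.4, 105 and 115 CPM in siCtrl and 55.1 and 37.2 CPM in siMED12 (log2 fold change -1.09 ± 0.24, adjusted p = 0.00832). SPRY4, a Sprouty inhibitor of receptor signalling, stood at 49.5, 83.6 and 94.95 CPM in siCtrl and 24.4 and 39.8 CPM in siMED12 (log2 fold change -1.26 ± 0.29, adjusted p = 0.0141). Of 26 tested AP-1 and immediate early genes 2 fell: MCL1, an inhibitor of apoptosis, at 428, 463 and 563 CPM in siCtrl and 265 and 376 CPM in siMED12 (log2 fold change -0.61 ± 0.16, adjusted p = 0.0476, and adjusted p = 0.0682 after subtraction of the PC3 counts), and BTG1, an antiproliferative gene, at 346, 351 and 402 CPM in siCtrl and 183 and 244 CPM in siMED12 (log2 fold change -0.79 ± 0.15, adjusted p = 0.00263). The median of this list was -0.13 and was 0.18 without siMED12 replicate 1, where no member was called, and -0.40 without replicate 3. IER5L, an immediate early gene of unclear role, stood at 48.1, 60.2 and 29.5 CPM in siCtrl and 16.96 and 12.8 CPM in siMED12 (log2 fold change -1.57 ± 0.33, adjusted p = 0.00773). DUSP1 lost the call without siCtrl replicate 3 or siMED12 replicate 1 (adjusted p 0.0713 and 0.45). DUSP2 lost the call without siCtrl replicate 3 or siMED12 replicate 3 (adjusted p 0.0547 and 0.165). SPRY4 lost the call without siCtrl replicates 2 or 3 or siMED12 replicate 1 (adjusted p 0.0523, 0.101 and 0.336). MCL1 lost the call without siCtrl replicates 2 or 3 or siMED12 replicate 1 (adjusted p 0.074, 0.205 and 0.572), and its log2 fold change was -0.38 without siMED12 replicate 1. BTG1 lost the call without siMED12 replicate 1 (adjusted p 0.186). IER5L lost the call without siCtrl replicate 2 or siMED12 replicates 1 or 3 (adjusted p 0.0515, 0.056 and 0.0934).

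Some hypoxia-induced genes fell. Of 30 tested genes outside glycolysis 4 fell and none rose, where 0.842% of all tested genes fell, and 24 were below 0, with a median of -0.34. DDIT4 (chr10:72273919-72276036), an inhibitor of mTORC1 that also responds to amino acid stress, stood at 196, 279 and 473 CPM in siCtrl and 43.5 and 141 CPM in siMED12, with a wide spread in both groups (log2 fold change -1.82 ± 0.31, adjusted p = 0.000578). CA12 (chr15:63321378-63381846), a membrane carbonic anhydrase, stood at 305, 451 and 459 CPM in siCtrl and 147 and 167 CPM in siMED12 (log2 fold change -1.37 ± 0.16, adjusted p = 5.18e-06). BNIP3L, a mitophagy receptor, stood at 209.5, 289 and 267 CPM in siCtrl and 147 and 121 CPM in siMED12 (log2 fold change -0.92 ± 0.19, adjusted p = 0.00704), and ANGPTL4, a secreted lipase inhibitor, at 58.6, 88.6 and 64.2 CPM in siCtrl and 31.8 and 25.7 CPM in siMED12 (log2 fold change -1.26 ± 0.27, adjusted p = 0.00612). Among 32 tested glycolysis genes 1 fell and 22 were below 0, and the highest siMED12 value of PFKFB3 lay just under its lowest siCtrl value. PFKFB3, which makes the activator of phosphofructokinase, stood at 75.5, 96.9 and 153 CPM in siCtrl and 40.3 and 70.5 CPM in siMED12 (log2 fold change -1.0 ± 0.27, adjusted p = 0.0492), and its adjusted p was 0.0616 after subtraction of the PC3 counts. DDIT4 was also the only call among 33 tested genes of amino acid stress. CA12 kept the call whichever of the 5 libraries was left out. DDIT4 lost the call without siMED12 replicate 1 (adjusted p 0.069), where the log2 fold change was -1.18. DDIT4 stood at -2.86 on the log2 scale without siMED12 replicate 3. BNIP3L lost the call without siMED12 replicate 3 (adjusted p 0.124). ANGPTL4 lost the call without siMED12 replicate 3 (adjusted p 0.0909). PFKFB3 lost the call without siCtrl replicates 2 or 3 or siMED12 replicate 1 (adjusted p 0.0671, 0.337 and 0.557), and its log2 fold change was -0.66 without siCtrl replicate 3 and -0.64 without siMED12 replicate 1.

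Of 42 tested androgen-regulated genes 1 rose and 5 fell, where 0.994% of all tested genes rose and 0.842% fell. The median was -0.01, and 21 members lay on each side of 0. Without siMED12 replicate 1 none rose and 2 fell, and without replicate 3 the median was -0.12. FKBP5, a chaperone induced by steroid receptors, stood at 103, 114 and 131 CPM in siCtrl and 50.9 and 73.1 CPM in siMED12 (log2 fold change -0.92 ± 0.23, adjusted p = 0.0235). KLK4 (chr19:50906351-50911395), a prostate kallikrein, stood at 334, 396 and 281 CPM in siCtrl and 164 and 148 CPM in siMED12 (log2 fold change -1.10 ± 0.16, adjusted p = 8.6e-05). In each of the 5 fallen genes both siMED12 libraries lay below all siCtrl libraries, which the naming rule required of ZBTB16. ZBTB16, a zinc finger repressor, stood at 26.03, 46.8 and 50.04 CPM in siCtrl and 9.54 and 15.4 CPM in siMED12 (log2 fold change -1.72 ± 0.42, adjusted p = 0.0194). DBI, the acyl-CoA binding protein, stood at 553, 602 and 1056 CPM in siCtrl and 298 and 432 CPM in siMED12 (log2 fold change -1.02 ± 0.21, adjusted p = 0.00585). PMEPA1, an inhibitor of SMAD signalling, stood at 308, 358 and 457 CPM in siCtrl and 151 and 181 CPM in siMED12 (log2 fold change -1.18 ± 0.19, adjusted p = 0.000304).

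ACP3, the prostatic acid phosphatase, rose from low levels, with 13.01, 6.69 and 5.13 CPM in siCtrl and 34.99 and 26.9 CPM in siMED12 (log2 fold change 1.88 ± 0.43, adjusted p = 0.0114). KLK3, which encodes prostate-specific antigen, was below all siCtrl libraries in both siMED12 libraries, at 24.7, 35.1 and 26.9 CPM in siCtrl and 11.7 and 10.3 CPM in siMED12, and did not pass (log2 fold change -1.36 ± 0.49, adjusted p = 0.189). TMPRSS2, a serine protease, stood at 9.11, 18.4 and 19.2 CPM in siCtrl and 18.02 and 20.5 CPM in siMED12, with overlapping groups (log2 fold change 0.31 ± 0.49, adjusted p = 0.861). The interval of the KLK3 change ran from -2.36 to -0.36 and that of TMPRSS2 from -0.68 to 1.30. KLK3 thus had an interval below 0 for a single gene and missed the threshold once adjusted over all genes. It passed in 1 alternative, the filter of at least 1 count (adjusted p = 0.0319). KLK4 and PMEPA1 kept the call whichever of the 5 libraries was left out. FKBP5 lost the call without siCtrl replicates 2 or 3 or siMED12 replicate 1 (adjusted p 0.053, 0.104 and 0.423). ZBTB16 lost the call without siCtrl replicates 2 or 3 or siMED12 replicate 1 (adjusted p 0.0671, 0.104 and 0.317). DBI lost the call without siCtrl replicate 3 or siMED12 replicate 1 (adjusted p 0.0687 and 0.227), and its log2 fold change was -0.67 without siCtrl replicate 3. ACP3 lost the call without siCtrl replicates 2 or 3 or siMED12 replicate 1 (adjusted p 0.0515, 0.0876 and 0.235).

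Of 29 tested TGF-beta and SMAD targets 3 fell and none rose, where 0.842% of all tested genes fell. The number that fell was 1 without siMED12 replicate 1, 4 without replicate 3 and 5 with the replicate block. The 3 genes were PMEPA1, given above, BMP2, a ligand of the family, at 179.6, 214 and 313 CPM in siCtrl and 122 and 141 CPM in siMED12 (log2 fold change -0.85 ± 0.19, adjusted p = 0.0111), and ID4, an inhibitor of basic helix-loop-helix factors, at 314, 276 and 259 CPM in siCtrl and 148 and 179.6 CPM in siMED12 (log2 fold change -0.79 ± 0.19, adjusted p = 0.021). Of 15 tested WNT genes 1 rose and 1 fell, where 0.994% of all tested genes rose and 0.842% fell. LEF1, a transcription factor that partners beta-catenin, stood at 41.6, 46.8 and 26.9 CPM in siCtrl and 93.3 and 79.5 CPM in siMED12 (log2 fold change 1.19 ± 0.29, adjusted p = 0.0218), and LGR5, a receptor for R-spondins, at 53.4, 56.8 and 105 CPM in siCtrl and 33.9 and 29.5 CPM in siMED12 (log2 fold change -1.19 ± 0.30, adjusted p = 0.026). BMP2 lost the call without siCtrl replicate 3 or siMED12 replicate 1 (adjusted p 0.138 and 0.215). ID4 lost the call without siCtrl replicate 1 or siMED12 replicate 1 (adjusted p 0.0853 and 0.315). LEF1 lost the call without siCtrl replicate 3 or siMED12 replicate 1 (adjusted p 0.134 and 0.268). LGR5 lost the call without siCtrl replicate 3 or siMED12 replicates 1 or 3 (adjusted p 0.302, 0.161 and 0.18), and its log2 fold change was -0.79 without siCtrl replicate 3.

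Some further transcription factors fell, where 0.842% of all tested genes fell. SP2, a zinc finger factor, was 1 of 16 tested SP and KLF factors called, at 32.5, 25.1 and 37.2 CPM in siCtrl and 8.48 and 7.7 CPM in siMED12 (log2 fold change -1.96 ± 0.37, adjusted p = 0.00242). Its expected PC3 share was 29.6% of the replicate 3 level, and its log2 fold change after subtraction was -2.14. ELF3, an epithelial ETS factor, was 1 of 16 tested ETS factors called, at 233, 339 and 390.1 CPM in siCtrl and 193 and 172 CPM in siMED12 (log2 fold change -0.81 ± 0.17, adjusted p = 0.00832). DBP, a circadian output factor, stood at 45.5, 36.8 and 21.8 CPM in siCtrl and 12.7 and 7.7 CPM in siMED12 (log2 fold change -1.71 ± 0.40, adjusted p = 0.0171), and CITED4, a coactivator that binds CBP and p300, at 31.2, 16.7 and 42.3 CPM in siCtrl and 11.7 and 8.98 CPM in siMED12 (log2 fold change -1.56 ± 0.43, adjusted p = 0.0499). SP2 kept the call whichever of the 5 libraries was left out. ELF3 lost the call without siCtrl replicate 3 or siMED12 replicates 1 or 3 (adjusted p 0.0687, 0.0544 and 0.116). DBP lost the call without siCtrl replicates 1 or 2 or siMED12 replicates 1 or 3 (adjusted p 0.107, 0.051, 0.0775 and 0.172). CITED4 lost the call without siCtrl replicates 1 or 3 or siMED12 replicates 1 or 3 (adjusted p 0.0995, 0.266, 0.219 and 0.244).

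Further genes among the 12 largest falls at a mean of at least 20 CPM have varied functions. MYEOV (chr11:69294151-69341682), a gene overexpressed in some myelomas, stood at 42.9, 40.1 and 48.8 CPM in siCtrl and 6.36 and 12.8 CPM in siMED12 (log2 fold change -2.23 ± 0.40, adjusted p = 0.00114). Its expected PC3 share was 41.7% of the replicate 3 level, and its log2 fold change after subtraction was -2.60. EDN2 (chr1:41478775-41484683), a vasoconstrictor peptide, stood at 61.2, 76.9 and 50.04 CPM in siCtrl and 16.96 and 14.1 CPM in siMED12 (log2 fold change -1.97 ± 0.34, adjusted p = 0.000911). MAP1B, a microtubule-binding protein, stood at 48.1, 48.5 and 69.3 CPM in siCtrl and 9.54 and 28.2 CPM in siMED12 (log2 fold change -1.61 ± 0.37, adjusted p = 0.0133), and SEPTIN4, a filament-forming GTPase, at 32.5, 26.7 and 50.04 CPM in siCtrl and 10.6 and 15.4 CPM in siMED12 (log2 fold change -1.52 ± 0.38, adjusted p = 0.0235). For these 4 genes the naming rule required groups without overlap, so that is set by the choice. The groups of the next gene, which entered by another part of the rule, did not overlap. FN1 (chr2:215360440-215436073), fibronectin, stood at 284, 481 and 429 CPM in siCtrl and 122 and 195 CPM in siMED12 (log2 fold change -1.33 ± 0.20, adjusted p = 0.00018). EDN2 and FN1 kept the call whichever of the 5 libraries was left out. MYEOV lost the call without siMED12 replicate 1 (adjusted p 0.0947). MAP1B lost the call without siCtrl replicate 3 or siMED12 replicate 1 (adjusted p 0.0762 and 0.406), and its log2 fold change was -0.99 without siMED12 replicate 1. MAP1B stood at -2.53 on the log2 scale without siMED12 replicate 3. SEPTIN4 lost the call without siCtrl replicate 3 or siMED12 replicates 1 or 3 (adjusted p 0.197, 0.353 and 0.0716).

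Some further abundant genes fell, chosen here after their values were seen except TMBIM1. TMBIM1, a transmembrane protein of endosomes and lysosomes, stood at 207, 246 and 296 CPM in siCtrl and 119 and 128 CPM in siMED12 (log2 fold change -1.02 ± 0.17, adjusted p = 0.000578). NET1, an exchange factor for RhoA, fell from 428, 421 and 516 to 215 and 222 CPM (log2 fold change -1.06 ± 0.16, adjusted p = 0.000119), and LRRC8A, the essential subunit of volume-regulated anion channels, from 216, 234 and 309 to 106 and 122 CPM (log2 fold change -1.16 ± 0.18, adjusted p = 0.000269). TMSB10, an actin-binding peptide, fell from 3784, 4011 and 4264 to 2472 and 2318 CPM (log2 fold change -0.75 ± 0.14, adjusted p = 0.00199). ACTG1, cytoplasmic gamma actin, fell from 8709, 9428 and 7764 to 6879 and 5568 CPM (log2 fold change -0.47 ± 0.13, adjusted p = 0.0467), the most abundant called gene. SQSTM1, an autophagy receptor, fell from 2139, 2164 and 2933 to 1689 and 1708 CPM (log2 fold change -0.51 ± 0.13, adjusted p = 0.0406). After subtraction of the PC3 counts ACTG1 and SQSTM1 lost the call (adjusted p = 0.0519 and 0.0593). TMBIM1, NET1, LRRC8A and TMSB10 kept the call whichever of the 5 libraries was left out. ACTG1 lost the call without siCtrl replicates 1 or 2 or siMED12 replicates 1 or 3 (adjusted p 0.0963, 0.185, 0.0533 and 0.447). SQSTM1 lost the call without siCtrl replicate 3 or siMED12 replicates 1 or 3 (adjusted p 0.265, 0.271 and 0.187).

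Among respiratory chain genes 1 of 11 tested mitochondrially encoded and 1 of 76 tested nuclear-encoded genes fell, where 0.842% of all tested genes fell. MT-CO1, mitochondrially encoded subunit I of cytochrome oxidase, stood at 1886, 3062 and 1642 CPM in siCtrl and 1134 and 1275 CPM in siMED12 (log2 fold change -0.86 ± 0.23, adjusted p = 0.0489). COX5B, a nuclear-encoded subunit of the same enzyme, stood at 113, 100.3 and 101 CPM in siCtrl and 67.9 and 48.7 CPM in siMED12 (log2 fold change -0.83 ± 0.20, adjusted p = 0.0189). MT-CO1 lost the call without siCtrl replicate 2 or siMED12 replicates 1 or 3 (adjusted p 0.333, 0.325 and 0.132), and its log2 fold change was -0.55 without siCtrl replicate 2. COX5B lost the call without siCtrl replicate 1 or siMED12 replicate 3 (adjusted p 0.069 and 0.275).

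Other lists gave no call, where 1.84% of all tested genes were called, and this is not read as a result about the lists. They comprised sterol and fatty acid synthesis (40 tested genes, median -0.10), endoplasmic reticulum folding (34, 0.09), heat shock proteins and chaperones (33, -0.03), metallothioneins and zinc transport (11, -0.29), neuroendocrine markers (7, 0.15) and interferon-induced and antigen presentation genes (26). Several of these medians turned or moved with 1 siMED12 library. Without replicate 1 and without replicate 3 respectively they were 0.16 and -0.37 for sterol and fatty acid synthesis, 0.23 and -0.11 for endoplasmic reticulum folding, -0.083 and -0.0016 for heat shock proteins, -0.00071 and -0.67 for metallothioneins and zinc transport, and 0.22 and -0.10 for neuroendocrine markers. The most abundant members of these lists gave log2 fold changes between -0.42 for ENO2, a neuronal enolase, and 0.58 for CHGB, a granin, with adjusted p of 0.412 and 0.352. Between them lay FDFT1 (-0.30) and FDPS (-0.10) of sterol synthesis, the chaperones HSP90B1 (0.0043), PDIA4 (0.039), HSP90AB1 (0.16) and HSPD1 (-0.17), the zinc transporters SLC39A6 (0.0025) and SLC39A4 (0.16), and ISG15 (0.16) and B2M (0.29), with adjusted p of 0.563 or more. The signs of FDPS, HSP90B1, PDIA4 and SLC39A6 changed in some fits with a library left out. The interferon list had a median of 0.47 and 21 members above 0, and after subtraction of the PC3 counts its median was 0.17. It was 0.73 without siMED12 replicate 1 and 0.21 without replicate 3. The neuroendocrine median moved from 0.15 to -0.39 with the subtraction. Of 21 tested NF-kB targets PLAU alone was called, where 0.994% of all tested genes rose, and its PC3 share is given above. ALDOA and NOP2, which all cells use, are listed at 0 in all 5 libraries, so their lists lack them.

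The largest fold change of all belonged to a pseudogene. RPL32P16 (ENSG00000219747, chr6:151099529-151099933), a processed copy of the mRNA of ribosomal protein RPL32, had 1, 1 and 3 counts in siCtrl and 220 and 184 in siMED12 (log2 fold change 6.56 ± 0.35, adjusted p = 1.3e-16). Over the libraries of a group these are 5 and 404 counts, a ratio of 101 with an exact 95% interval of 42.8 to 312 that covers counting error only. The copy lies in an intron of MTHFD1L on the same strand and overlaps no exon of it, and MTHFD1L itself was not called (log2 fold change -0.41 ± 0.25, adjusted p = 0.564). In LNCaP and PC3 its fold changes were -0.26 and 0.84, with adjusted p of 0.988 and 0.978.

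The parent gene RPL32 stood at 2648, 2439 and 2358 CPM in siCtrl and 2549.9 and 2247 CPM in siMED12 (log2 fold change -0.049 ± 0.11, adjusted p = 0.924), while RPL32P18, a second copy in an intron of NUDCD3, fell from 354, 351 and 327 to 209.9 and 186 CPM (log2 fold change -0.79 ± 0.14, adjusted p = 0.00114). RPL32P16 matched the RPL32 coding sequence of 408 bases at 392 of 404 aligned bases (97.0%), with 12 substitutions, and RPL32P18 at 401 of 408 (98.3%), with 7. The copies hold stretches that are identical to RPL32, and how reads that fit several places were counted is not given in the sources used here, so these values are uncertain. RPL32P16 and RPL32P18 kept the call whichever of the 5 libraries was left out.
A stretch of coding sequence is shown because it holds letters by which a read could be told from the parent. Positions count from 1 at the first base of the RPL32 start codon, bases 377 to 406 are given, and capitals mark bases that differ between the 3 sequences of the Gencode 44 transcripts.
RPL32: AtgccaggctgCgcagTgaagaaaatgagt
RPL32P16: GtgccaggctgTgcagCgaagaaaatgagt
RPL32P18: AtgccaggctgCgcagCgaagaaaatgagt
In this stretch RPL32P16 differs from RPL32 by A377G, C388T and T393C, and RPL32P18 by T393C.

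Copies of UBE2S fell, as their parent did. UBE2SP1 fell from 302, 318 and 362 to 125 and 171 CPM (log2 fold change -1.16 ± 0.18, adjusted p = 0.000174) and UBE2SP2 from 138, 172 and 178 to 80.6 and 98.8 CPM (log2 fold change -0.86 ± 0.22, adjusted p = 0.0311), and reads split between UBE2S and its copies cannot be told apart here. ENSG00000242951, another processed pseudogene, stood at 20.8, 0 and 12.8 CPM in siCtrl and 42.4 and 35.9 CPM in siMED12 (log2 fold change 1.70 ± 0.43, adjusted p = 0.0299). GTF2H2C, a copy of the TFIIH subunit gene GTF2H2, had 5, 3 and 3 counts in siCtrl and 0 and 0 in siMED12 (adjusted p = 0.0492), so no fold is given, and its reads may be split with GTF2H2. The adjusted p of GTF2H2C was 0.0566 after subtraction of the PC3 counts, and its call was lost whichever of the 5 libraries was left out. The long non-coding RNA ENSG00000291174 stood at 28.6, 43.5 and 50.04 CPM in siCtrl and 8.48 and 20.5 CPM in siMED12 (log2 fold change -1.52 ± 0.40, adjusted p = 0.0386), and its adjusted p was 0.0517 after subtraction of the PC3 counts. UBE2SP1 kept the call whichever of the 5 libraries was left out. UBE2SP2 lost the call without siCtrl replicates 2 or 3 or siMED12 replicates 1 or 3 (adjusted p 0.0941, 0.106, 0.363 and 0.0742). ENSG00000242951 lost the call without siCtrl replicates 2 or 3 or siMED12 replicates 1 or 3 (adjusted p 0.121, 0.0816, 0.288 and 0.0706). ENSG00000291174 lost the call without siCtrl replicates 2 or 3 or siMED12 replicate 1 (adjusted p 0.1, 0.177 and 0.513), and its log2 fold change was -0.99 without siMED12 replicate 1.

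The same contrast in the other lines, each with its own siCtrl libraries, gave 44 called genes in LNCaP (0.416%) by edgeR and none in PC3. In LNCaP DESeq2 called 23 genes and limma called 29. In PC3 527 genes had an unadjusted p under 0.05 by edgeR, DESeq2 called none and limma called 1. Of the genes called in 22Rv1 8 were also called in LNCaP, which is 4.12% of the 22Rv1 and 18.2% of the LNCaP calls. Of these, MYC, DDIT4, ELF3, BNIP3L, PFKFB3, DUSP1 and C19orf48, a host gene of small nucleolar RNA, fell in LNCaP with log2 fold changes of -0.65, -1.21, -1.29, -0.65, -1.21, -0.88 and -0.66 (C19orf48 in 22Rv1, -0.75, named after its values were seen). GALNT3 rose there (log2 fold change 0.81, adjusted p = 0.0191). The test of the difference between lines passed for 20 genes against LNCaP (0.189%), 16 of them called in 22Rv1, and for 10 genes against PC3 (0.0946%), 9 of them called in 22Rv1.

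S100A10, C12orf75, PYGL, TSPAN3 and AGR2 passed both tests with all libraries. For PYGL the effect in 22Rv1 exceeded that in LNCaP by 2.26 ± 0.40 on the log2 scale (adjusted p = 0.0166) and that in PC3 by 2.35 ± 0.39 (adjusted p = 0.00327). For AGR2 the differences were 1.39 ± 0.30 (adjusted p = 0.0435) and 1.31 ± 0.26 (adjusted p = 0.0313). PMEPA1 fell in 22Rv1 and stood at 0.28 in LNCaP, a difference of -1.46 ± 0.28 (adjusted p = 0.0192). For MYC the difference from LNCaP was -0.23 ± 0.20 and did not pass (adjusted p = 0.845).

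Against PC3, S100A10, C12orf75 and PYGL passed in all 5 fits with 1 22Rv1 library left out, and against LNCaP RPL32P16 did. The number of genes that differed from LNCaP was 4 without siCtrl replicate 2, 1 without siCtrl replicate 3, 10 without siMED12 replicate 1 and 10 without siMED12 replicate 3. Against PC3 it was 3 without siCtrl replicate 2, 4 without siCtrl replicate 3, 31 without siMED12 replicate 1 and 17 without siMED12 replicate 3. Differences in AGR2, TSPAN3 and S100A10 from LNCaP lost the call in each of the 5 fits, with sizes of 1.3 to 1.5, 1.02 to 1.17 and 0.98 to 1.13 over all alternatives. The difference from LNCaP was also lost for PYGL without siCtrl replicate 3 or siMED12 replicate 1 (adjusted p 0.0589 and 0.0575), for PMEPA1 without siCtrl replicate 3 or siMED12 replicate 1 (adjusted p 0.0589 and 0.0763) and for C12orf75 without siCtrl replicates 2 or 3 or siMED12 replicates 1 or 3 (adjusted p 0.0915, 0.0775, 0.0966 and 0.0593). The difference from PC3 was lost for AGR2 without siCtrl replicates 1 or 2 (adjusted p 0.0591 and 0.0903) and for TSPAN3 without siCtrl replicates 1, 2 or 3 or siMED12 replicate 1 (adjusted p 0.0591, 0.0903, 0.0539 and 0.102).

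**Figure D5:**
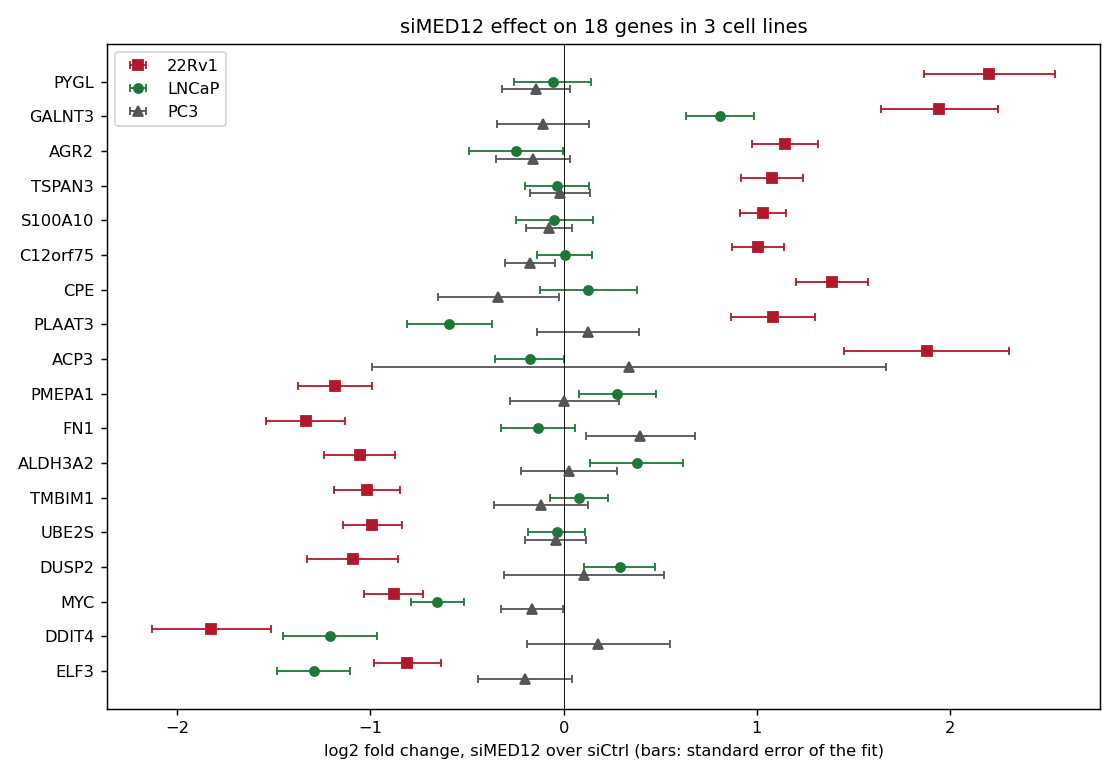
Log2 fold change, siMED12 over siCtrl, of 18 genes in 22Rv1 (red squares), LNCaP (green circles) and PC3 (grey triangles), with bars for the SE of the fit. PYGL stands at 2.20 in 22Rv1 and near 0 in the other lines, while MYC, DDIT4 and ELF3 lie below 0 in both 22Rv1 and LNCaP.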

How the data were processed

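3′ tag libraries of 22Rv1, LNCaP and PC3 spheroids were made by BRB-seq. According to the study's methods, STARsolo assigned the reads to Gencode release 43 genes (GRCh38.p13), and the authors deposited raw counts and a table of log2 CPM. The deposited log2 values were recomputed from the counts with edgeR (prior count 2) to within 5e-14. The collapsing of molecular identifiers, the strand setting and the version of STARsolo are not given in the sources used here, so overlapping and antisense genes may share counts.

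Counts were tested in R 4.3.3 with the 2-sided edgeR 4.0.16 quasi-likelihood test (glmQLFit with legacy set to FALSE, filter of minimum count 10 and minimum total 15, TMM scaling) in 1 fit of all 16 libraries and 6 groups. The kept 10566 genes held 98.4% to 98.6% of the 22Rv1 counts. Benjamini-Hochberg adjusted p-values under 0.05 were called, and the SE is the size of the log2 fold change over the square root of F. The common biological coefficient of variation was 0.125. Replicates varied 1.91 to 2.77 times more than a repeat sampling of the same pool, so none was a copy of another. Coordinates are from Gencode 44, promoters from RefSeq (GRCh38.p14), and copies were aligned with Biopython 1.88. The fit was tested on simulated data.

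Genes were named by rule: MED12, MYC, KLK3, FKBP5 and TMPRSS2, the 12 highest and 12 lowest called fold changes with at least 20 CPM and no overlap of groups, up to 4 called genes per list (else up to 2 uncalled genes of the highest level), and, per difference between lines, the 3 of smallest p of each sign among called genes. A few genes that met the rule are not reported here. The samples, the rule and the 36 lists were chosen with earlier results of these data known. Alternatives were RLE scaling, DESeq2 1.42.0, limma 3.58.1 on the deposited log2 CPM, other filters, a replicate block, the 5 22Rv1 libraries alone, each library left out and subtraction of PC3 counts. The legacy edgeR test and list counts under alternatives were added after seeing the data.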

Additional observations from a re-analysis of the deposited data

Results flagged for a closer look

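The genes below drew a closer look because the effect of siMED12 differed between 22Rv1 and another line by the edgeR test of the difference itself, at an adjusted p under 0.05. Each value is the log2 fold change in 22Rv1 minus that in the other line.

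Against LNCaP the 22Rv1 effect was higher for RPL32P16 (6.82), PYGL (2.26), ACP3 (2.05), PLAAT3 (1.67), DNAJB1 (1.46), AGR2 (1.39), TSPAN3 (1.11), S100A10 (1.08) and C12orf75 (1.00). It was lower for FAM110B (-1.76), PMEPA1 (-1.46), ALDH3A2 (-1.43), MT-CO1 (-1.41), DUSP2 (-1.38), TMBIM1 (-1.10), UBE2S (-0.95) and TEX264 (-0.91). DNAJB1, a heat shock cochaperone, and FAM110B were not called in 22Rv1, where their log2 fold changes were -0.22 and -0.15, and were called in LNCaP at -1.69 and 1.61. TEX264, a receptor for autophagy of the endoplasmic reticulum, stood at 656, 598 and 754 CPM in siCtrl and 364 and 414 CPM in siMED12 (log2 fold change -0.79 ± 0.14, adjusted p = 0.000874).

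Against PC3 the 22Rv1 effect was higher for PYGL (2.35), GALNT3 (2.05), CAV1 (1.89), CPE (1.73), AGR2 (1.31), C12orf75 (1.18), S100A10 (1.11) and TSPAN3 (1.10), and lower for FN1 (-1.73). CAV1 is expressed in PC3, and its expected PC3 share in 22Rv1 siMED12 replicate 3 was 40.4%. Without that library its difference from PC3 had an adjusted p of 0.178.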

How the results depend on the processing

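Of the 194 changed genes 192 kept their direction under all 14 alternatives that tested them, and ANXA2 and PLAU did not. Both turned negative after subtraction of the PC3 counts (-0.35 and -1.12), and PLAU also without siMED12 replicate 3 (-0.30). The amount subtracted exceeded the replicate 3 level of both genes, so their signs after subtraction are not read as falls. The count of 194 was 87 with DESeq2 (52 higher, 35 lower) and 74 to 157 with 1 library left out (52 to 67 higher, 22 to 90 lower). limma called 53 genes lower, and the filter of at least 1 count gave 158 higher. Differences from LNCaP numbered 68 with that filter, 13 with limma and 1 to 16 with 1 library left out, and differences from PC3 71, 16 with DESeq2 and 3 to 31. The cause of these shifts was not tested, although fits with a library left out have fewer samples and the filter of at least 1 count tests more genes. MED12 kept its direction in every fit that tested it (-1.04 to -1.41) and passed in none, and DESeq2 gave it no adjusted p.

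With the replicate number as a block 312 genes passed (161 lower), 182 of them among the 194, and 71 and 73 genes differed from LNCaP and PC3. The numbers were not taken to pair the samples, since the labels name no shared batch. The deviations of same-numbered libraries correlated at 0.052 to 0.214 over 7 pairs. These values, all positive but not all above 0.1, do not settle whether the numbers pair the samples. In all 3 lines each siMED12 library correlated best with its own number, a hint from the data and not the design. In 22Rv1 and PC3 the deviations of the siMED12 libraries mirror each other, so their pairs are not independent. With siCtrl replicate 1 of 22Rv1 they correlated at 0.161 and -0.161.

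Reversed signs otherwise occurred in genes near 0 that were never called. With 1 library left out, log2 fold changes ran from -0.13 to 0.070 for CCNC, -0.24 to 0.025 for FDPS, -0.15 to 0.13 for HSP90B1, -0.23 to 0.12 for NCL, -0.079 to 0.25 for PDIA4, -0.16 to 0.040 for RPL32, -0.058 to 0.10 for RPL8 and -0.080 to 0.052 for SLC39A6. PLAU ran from -0.30 to 2.90. The block gave 0.063 for CCNC, -0.029 for HSP90B1, -0.013 for PDIA4 and -0.030 for RPL8, and the filter of at least 1 count gave 0.014 for CCNC and 0.00047 for NCL. A count of 0 allows 3.18 to 5.01 CPM, and 17 of the 105 higher genes had a siCtrl mean under 5 CPM.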
